A study of Mus musculus with 11 samples.

Results

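The tumour suppressor p53 and the genes known as its targets were followed in mouse leukaemia cells after deletion of 3 histone demethylase genes. The set held 33 genes of the p53 pathway and DNA damage response, chosen by name: every array probe whose RefSeq accession belongs to a listed gene was taken. All 33 had a probe on the array, out of 20972 gene symbols in all, and 32 gave enough signal to be tested among 25082 genes and unnamed features. Expression was compared between 96 h (3 arrays), 48 h (4 arrays) and 0 h (4 arrays) of exposure to 500 nM 4-hydroxytamoxifen. The cells of all 3 groups were granulocyte-macrophage progenitors turned leukaemic by the MLL-AF9 fusion gene (L-GMP), grown from leukaemic mice of the C57BL/6 background as 4 lines. They carried floxed alleles of Jmjd2a, Jmjd2b and Jmjd2c, the older names of Kdm4a, Kdm4b and Kdm4c, and a Cre recombinase fused to a mutant oestrogen receptor (CreERT2) at Rosa26, a locus active in nearly all cells. All cultures grew in RPMI with 20% serum and 10 ng/ml interleukin-3. The 0 h cultures carried CreERT2 as well but had not met the drug, and no treated cells without floxed alleles were analysed here. Drug, Cre activity, loss of the demethylases and time in culture therefore cannot be told apart in these comparisons. The labels do not say which replicate number belongs to which line, so p-values measure the spread between arrays of cultures that share few lines.

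p53 is a transcription factor that is held low by the ubiquitin ligase Mdm2 and is released when DNA is damaged or cells are stressed. It then switches on genes that halt the cell cycle, such as Cdkn1a, genes that help repair DNA, and genes that drive cell death, along with Mdm2 itself, which closes a feedback loop.

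Each array gave a 1-colour signal per probe, and the values below are log2 signals set against the 75th percentile of the same array (the scaled log2 signal). A gene was called when limma's moderated test over all 11 arrays gave a Benjamini-Hochberg adjusted p under 0.05 across all 25082 features. Between 27560 and 42062 of the 55681 probes were well above background per array, the most on 96 h replicate 1, and no spot was saturated. The brightness of the arrays differed with time. Before scaling, the 75th percentile of the signal was 148 to 203 at 0 h, 108 to 147 at 48 h and 228 to 294 at 96 h. The part of this in the differences, those of dim probes above all, was not tested. The 0 h and 48 h arrays lay on 1 slide and the 96 h arrays on another slide scanned separately, so slide, scan and the 96 h time point cannot be told apart. The deletion was visible in all 3 target genes. Kdm4c differed by -4.60 at 96 h and -4.95 at 48 h from 0 h, Kdm4b by -3.25 and -3.30, and Kdm4a by -1.20 and -1.60, all called, with the Kdm4c probe well above background on 2 of 4 arrays at 48 h. All 11 markers of granulocyte-macrophage progenitors were above background on every array. At 48 h 3 of them were called against 0 h, namely Mpo, the gene of myeloperoxidase (4.33), and the homeobox genes Hoxa9 (-0.62) and Meis1 (-0.64), and at 96 h 1 was called, Mpo (5.18). The 10 markers of mature neutrophils had a log2 summed signal of 6.32 to 9.33 at 0 h, 7.42 to 9.27 at 48 h and 9.64 to 10.56 at 96 h, and 4 of them were called higher at 96 h than at 0 h. The part of this shift in the p53 results was not tested, and in bulk RNA fewer cells of a type and less RNA per cell cannot be told apart. Of the macrophage, mast cell and basophil, lymphoid, erythroid and stromal marker lists, 6, 3, 5, 2 and 3 genes were tested. Each had at most 1 gene called against 0 h at either time, which was 33.3% of the mast cell and basophil list at both times. Over all features 18.6% were called at 48 h and 9.54% at 96 h. The same shares were 27.3% and 9.09% for the progenitor markers and 10% and 40% for the neutrophil markers. Lists this short do not show that a cell type was unchanged.

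The p53 set did not move as a block at either time. At 48 h, 9 of the 32 tested members were called against 0 h (28.1%), where 18.6% of all features were called. Of these members 3 were higher, namely Jag2, Phlda3 and Ak1, and 6 were lower, namely Gadd45a, Rrm2b, Bbc3, Fas, Polk and Ppm1d, beside 10.4% of all features higher and 8.16% lower. At 96 h, 6 members were called against 0 h (18.8%), beside 9.54% of all features. The 4 higher ones were Xpc, Ercc5, Pidd1 and Jag2, and the 2 lower ones were Gadd45a and Rrm2b, where 6.11% of all features were higher and 3.43% lower. Between 96 h and 48 h, 5 members were called (15.6%), with 11.3% of all features called (5.27% higher and 6% lower): Polk, Ddb2 and Pidd1 were higher and Cdkn1a and Phlda3 lower at 96 h. Gadd45a, Rrm2b and Jag2 were called in the same direction at both 48 h and 96 h, 2 comparisons that share the 0 h arrays. In all, 14 members were called in at least 1 comparison and 18 in none. Of the 32 tested members 31 were well above background on all 11 arrays, while a feature needed only 3 to be kept. The shares of members and of all features therefore come from unlike sets, and the part of this in the shares was not tested. The counts depended on single arrays. That of 48 h was 5 without 0 h replicate 4 or 48 h replicate 4. The 96 h count relative to 0 h was 0 without 96 h replicate 3 (13 at an unadjusted p under 0.05), 1 without 96 h replicate 2 or 0 h replicate 4, 2 or 3 without 96 h replicate 1, 48 h replicate 3 or 4 or 0 h replicate 1 or 3, and 11 without 0 h replicate 2. With the 48 h arrays left out of the fit, limma called 0 members there and 14 had an unadjusted p under 0.05. The share of all features at an unadjusted p under 0.05 is not given. Unadjusted counts, here and below, therefore cannot be set against a background. Over all 25082 features, leaving out 1 array gave 2459 to 5435 calls at 48 h and 705 to 3284 at 96 h, both against 0 h. The member count between 96 h and 48 h was 1 to 3 without any 1 of the later arrays or 0 h replicate 4.

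The median log2 difference over the 32 tested members was 0.05 at 48 h and 0.03 at 96 h, both against 0 h, and 0.02 between 96 h and 48 h. Over all features the same medians were 0.12, 0.11 and 0.04. Individual members spanned -2.21 to 1.17 at 48 h and -1.73 to 0.77 at 96 h. Members whose arrays did not overlap between the times numbered 12 of 32 at 48 h and 10 of 32 at 96 h relative to 0 h, and 11 of 32 between 96 h and 48 h, where 23.7%, 25.1% and 27.9% of all features did not overlap. The scaling of the arrays bears on the direction of calls. When each array was set to its median in place of its 75th percentile, the median of all features moved to -0.11 at 48 h and -0.28 at 96 h relative to 0 h, and to -0.12 between 96 h and 48 h. The members called were then 1 higher and 6 lower at 48 h, 0 higher and 7 lower at 96 h, and 0 higher and 2 lower between 96 h and 48 h. Over all features the split of calls at 48 h was 2613 higher and 2046 lower, against 419 and 1933 with median scaling and 1837 and 2212 after quantile normalization. For the 96 h arrays it was 1533 higher and 861 lower, against 231 and 2294 with median scaling and 982 and 1171 after quantile normalization.

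**Figure D1:**
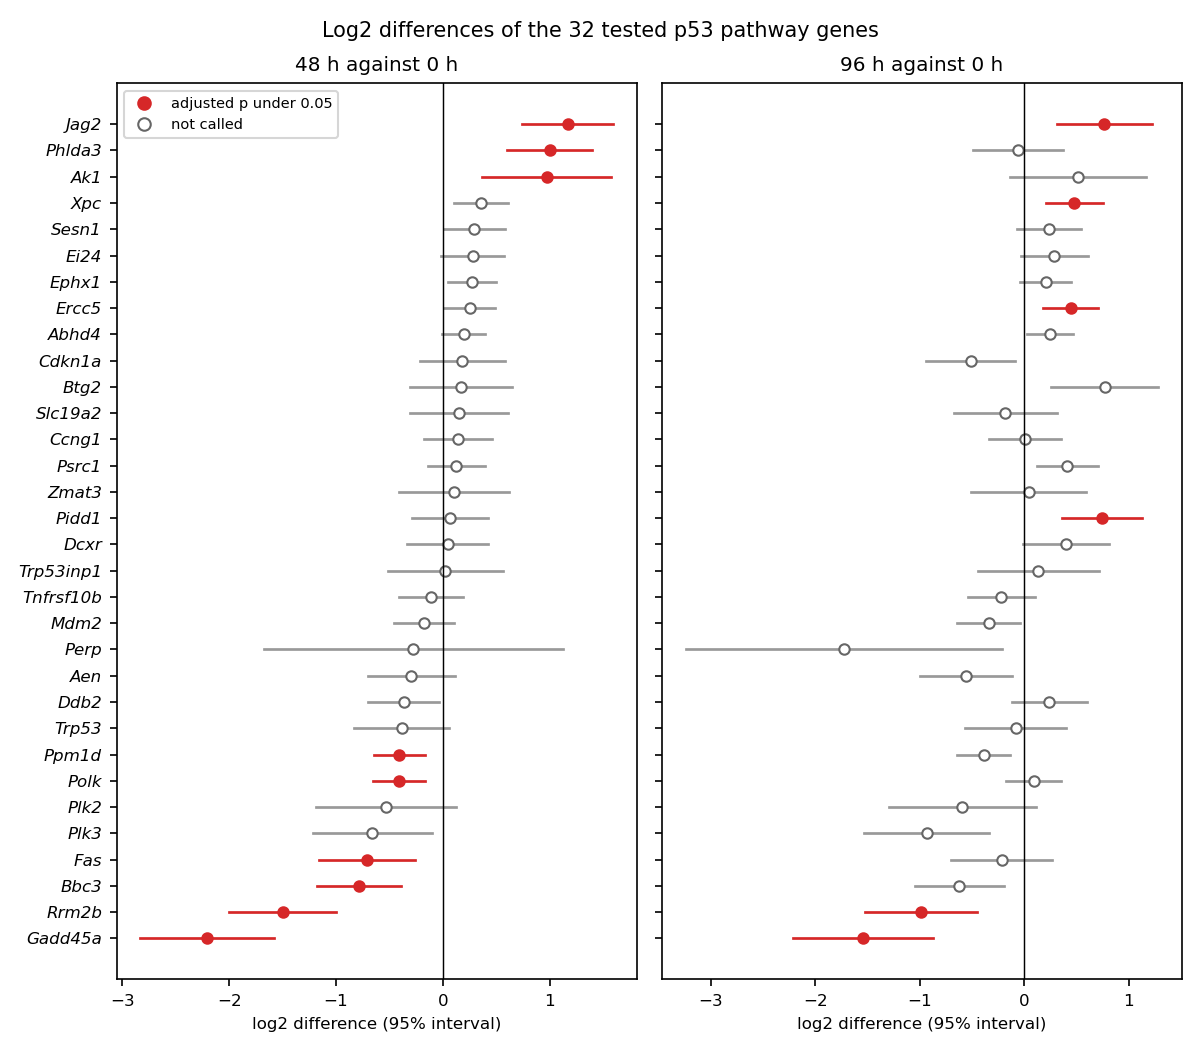
Log2 differences of the 32 tested p53 pathway genes relative to 0 h, at 48 h (left) and 96 h (right), as points with 95% intervals from limma; filled red points passed an adjusted p of 0.05 and open points did not. Gadd45a sits farthest to the left at 48 h, at -2.21, and Jag2 farthest to the right, at 1.17, while 17 of 32 intervals at 48 h and 16 of 32 at 96 h hold 0.

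The replicate numbers carried in the scanner records were taken to pair the arrays across times. Deviations from the group means correlated across genes at 0.115 to 0.356 between arrays with the same number. Between arrays with different numbers the correlations ran from -0.293 to 0.167, so the ranges overlapped. Pairs by the numbers in the 96 h titles ran from -0.042 to 0.356. The scanner numbers were chosen with these correlations known, which are therefore no test of the choice. The blocked results and the counts of pairs rest on it. On every array the scanner number equals the column of the array on its slide. A shared culture and a shared position on the slide therefore cannot be told apart in the pairs and the block. With the scanner number as a block, 10 members were called at 48 h and 13 at 96 h (6 higher and 7 lower), both relative to 0 h, and 5 between 96 h and 48 h, beside 21.5%, 14% and 12.3% of all features. The genes gained at 96 h are given with their group below.

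Cdkn1a encodes p21, the inhibitor of cyclin-dependent kinases through which p53 halts the cell cycle, and it is the gene most often read as a sign of p53 activity. Its brighter probe gave 3.74, 3.05, 2.95 and 3.43 at 0 h, 3.48, 3.56, 3.33 and 3.51 at 48 h, and 2.99, 2.51 and 2.84 at 96 h. The 48 h values lay within the range of the 0 h values, and every 96 h array was below every 48 h array. The log2 difference at 48 h against 0 h was 0.18 ± 0.18 (SE), with a 95% interval of -0.21 to 0.58 for this probe and an adjusted p of 0.493. It was -0.04 with median scaling and 0.61 (adjusted p = 0.0953) with the mean of both Cdkn1a probes. Against 0 h, the 96 h difference was -0.51 ± 0.19 (SE, adjusted p = 0.115), lower in 3 of 3 pairs, and this was called with median scaling (-0.89, adjusted p = 0.0186) but was -0.06 (adjusted p = 0.898) with the mean of both probes. Cdkn1a fell by 0.69 ± 0.19 (SE) on the log2 scale at 96 h relative to 48 h (adjusted p = 0.045), a call kept under 11 of 24 alternatives with adjusted p of 0.0261 to 0.141. It was lost without 0 h replicate 4 or any 1 of the 48 h and 96 h arrays.

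A second, dimmer Cdkn1a probe, singled out after its values were seen, carries the accession of a different RefSeq transcript. It gave -0.85, -1.99, -2.11 and -1.52 at 0 h, -0.75, -0.88, -0.54 and -0.18 at 48 h, and -1.13, -1.76 and -0.79 at 96 h. All 48 h arrays were above all 0 h arrays, while the 96 h arrays overlapped both. Its log2 difference at 48 h against 0 h was 1.03 ± 0.30 (SE), with an adjusted p of 0.044 over all 34273 probes kept, kept under 10 of 23 alternatives and 0.51 after normexp background correction. Leaving out 0 h replicate 2, 3 or 4, any 1 of the 48 h arrays or 96 h replicate 1 ended the call (highest adjusted p 0.115). At 96 h it was 0.39 ± 0.33 (SE, adjusted p = 0.463). The within-array difference of the second probe minus the first averaged -4.06 ± 0.34 at 48 h and -4.91 ± 0.22 at 0 h (SD, n = 4 each), and -4.01 ± 0.33 at 96 h (SD, n = 3). Only its change over time can be read, since signals of different probes are not comparable. That change was 0.85 at 48 h and 0.90 at 96 h, and in each case every later array lay above every 0 h array. The exact two-sided permutation p was 0.0286 for each, the smallest these group sizes allow, and 0.129 after Benjamini-Hochberg adjustment over 18 such comparisons in the 6 genes with a pair of probes.

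**Figure D2:**
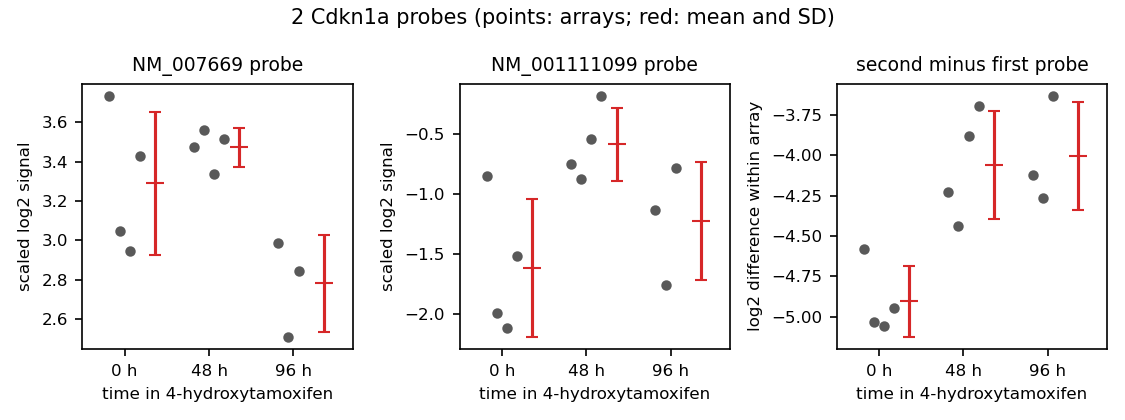
Scaled log2 signal of the brighter (left) and dimmer (middle) Cdkn1a probe and the log2 difference between them within each array (right) at 0, 48 and 96 h; grey points are arrays and red bars the mean and SD. The brighter probe overlaps between 0 h and 48 h, with means of 3.29 and 3.47, and the within-array difference of the 7 later arrays lies above that of all 0 h arrays.

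Cdkn1a has a pair of annotated start sites in RefSeq (GRCm38.p6), and their promoter windows, 250 bases before to 50 after each start, are shown because the probes carry accessions of different transcripts. The table does not pair windows with transcripts. Both windows were searched for the p53 consensus, a pair of 10-base half-sites separated by 0 to 13 bases with at most 2 mismatches and the core of each half-site intact, which reads the same on both strands. The window at the upstream start (chr17:29090729-29091028, plus strand) holds a pair with 0 mismatches and a spacer of 12 bases that begins 73 bases before the start, in capitals, and the window at the downstream start (chr17:29093519-29093818, plus strand) holds none. Only the pair with the fewest mismatches is marked. The second marked half-site is followed directly, with a spacer of 0 bases, by a further half-site left in lower case. That half-site departs from the consensus only at its first base, so these adjoining half-sites also form a pair under the same rule.
Cdkn1a upstream start: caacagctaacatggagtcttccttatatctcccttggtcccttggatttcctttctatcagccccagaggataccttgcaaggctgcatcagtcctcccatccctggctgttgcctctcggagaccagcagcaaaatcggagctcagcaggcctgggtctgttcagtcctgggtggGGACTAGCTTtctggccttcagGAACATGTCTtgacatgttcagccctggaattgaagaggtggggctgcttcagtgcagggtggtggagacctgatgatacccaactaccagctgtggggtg
Cdkn1a downstream start: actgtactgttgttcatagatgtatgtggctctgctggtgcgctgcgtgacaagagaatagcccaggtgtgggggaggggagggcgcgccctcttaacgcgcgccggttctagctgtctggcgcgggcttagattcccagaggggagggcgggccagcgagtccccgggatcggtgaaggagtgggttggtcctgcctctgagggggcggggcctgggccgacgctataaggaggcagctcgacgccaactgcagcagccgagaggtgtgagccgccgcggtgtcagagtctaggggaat
Of 32851 windows in the RefSeq table, 2.12% hold such a pair and 0.0731% hold one with 0 mismatches. Windows were at hand for 26 of the 33 members, 37 windows in all, and 2 of these (5.41%) hold a pair. The other one belongs to Sesn1 (chr10:41887189-41887488, plus strand), with 2 mismatches and a spacer of 3 bases. A match describes the letters of the window and is not a measured binding site. Sequence outside the windows was not searched, so a window without a pair does not mean a gene without one.

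Mdm2 encodes the ligase that marks p53 for breakdown and is itself a p53 target. It gave 4.81, 4.17, 4.59 and 4.58 at 0 h, 4.36, 4.37, 4.43 and 4.29 at 48 h, and 4.25, 4.17 and 4.18 at 96 h. The 48 h and 0 h arrays overlapped, and the 96 h arrays lay below all 48 h arrays. The log2 difference was -0.34 ± 0.14 (SE, adjusted p = 0.136) at 96 h and -0.18 ± 0.13 (SE, adjusted p = 0.347) at 48 h, both against 0 h. Mdm2 was lower in 3 of 3 pairs at 96 h and 3 of 4 at 48 h, and with the replicate block the 96 h difference was -0.40 (adjusted p = 0.0798). The 95% interval at 48 h ran from -0.46 to 0.10. Without 0 h replicate 2, the array that reached 4.17, the same differences were -0.46 (adjusted p = 0.0207) and -0.30 (adjusted p = 0.0489), and with median scaling the 96 h difference was -0.72 (adjusted p = 0.0387).

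Trp53 encodes p53 itself, whose activity is set largely after transcription. Its probe gave 0.40, 0.93, 0.31 and 0.13 at 0 h, 0.06, 0.04, 0.18 and -0.05 at 48 h, and 0.10, 0.15 and 0.83 at 96 h. The groups overlapped throughout, with 1 high array each at 0 h and 96 h. The log2 difference from 0 h was -0.08 ± 0.22 (SE, adjusted p = 0.831) at 96 h and -0.38 ± 0.20 (SE, adjusted p = 0.2) at 48 h, lower in 4 of 4 pairs at 48 h.

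**Figure D3:**
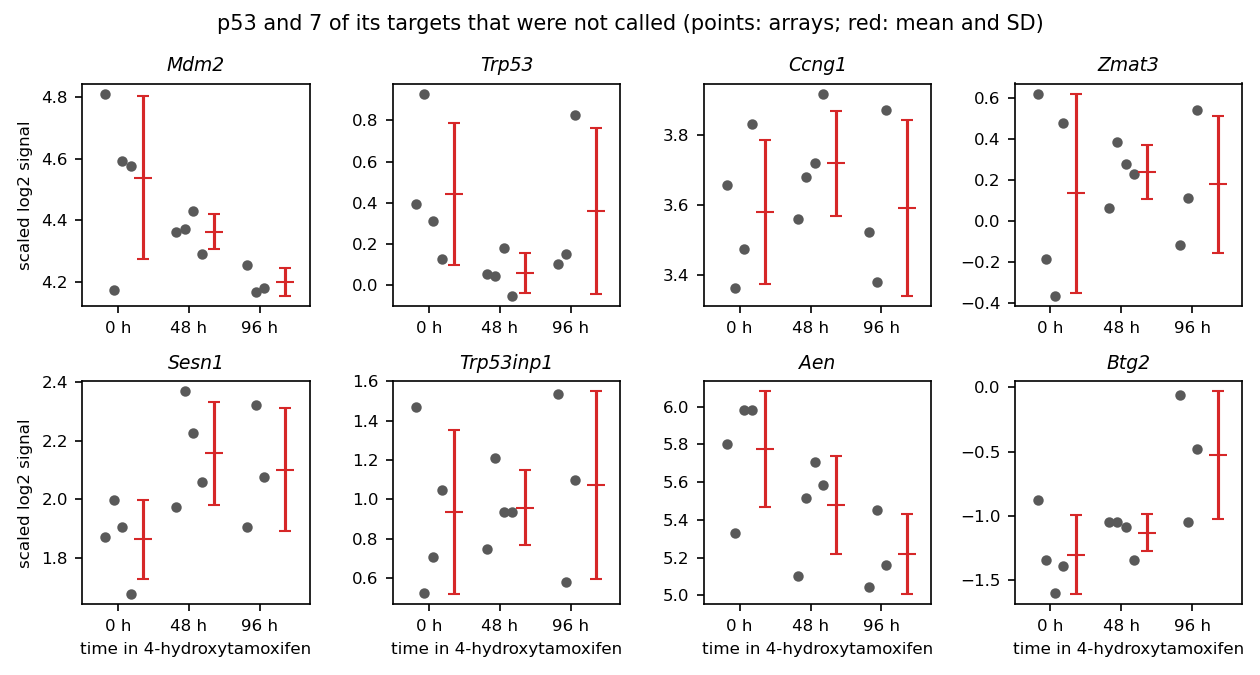
Scaled log2 signal of Trp53, Mdm2 and 6 other p53 targets that were not called in any comparison without the replicate block, by array (grey points) at 0, 48 and 96 h, with mean and SD in red; each panel has its own axis. The arrays of Ccng1, Zmat3 and Trp53inp1 overlap at all times, and those of Mdm2 at 96 h lie below those at 48 h.

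Among the genes that halt the cell cycle or sense damage, Gadd45a had the largest change of the set. Gadd45a encodes a small stress protein that binds p21 and proliferating cell nuclear antigen and acts in growth arrest and DNA repair. It gave 3.91, 3.33, 4.35 and 4.59 at 0 h, 2.06, 1.76, 1.83 and 1.70 at 48 h, and 3.03, 2.46 and 2.03 at 96 h. Every 48 h and every 96 h array was below every 0 h array, and the 96 h arrays reached higher than those at 48 h. Gadd45a fell at 48 h, to 21.7% of its 0 h signal, a log2 difference of -2.21 ± 0.28 (SE, adjusted p = 0.00212) that was called under all 24 alternatives, from -2.44 to -2.03. At 96 h it stood at 34.4% of the 0 h signal (-1.54 ± 0.30, SE, adjusted p = 0.0177). That call was lost when 96 h replicate 2 or 3 was left out, or when the 48 h arrays were not in the fit (highest adjusted p 0.065).

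The promoters of Gadd45a and of Phlda3, which moved the opposite way at 48 h, are shown beside that of Mdm2, a classic target that was not called. Gadd45a (chr6:67037358-67037657, minus strand) and Mdm2 (chr10:117710709-117711008, minus strand) each hold 1 exact p53 half-site, in capitals. Phlda3 (chr1:135765835-135766134, plus strand) holds none that lies wholly within its window. The last bases of the Phlda3 window match the start of a half-site, and the bases that would complete it lie beyond the window and were not read.
Gadd45a: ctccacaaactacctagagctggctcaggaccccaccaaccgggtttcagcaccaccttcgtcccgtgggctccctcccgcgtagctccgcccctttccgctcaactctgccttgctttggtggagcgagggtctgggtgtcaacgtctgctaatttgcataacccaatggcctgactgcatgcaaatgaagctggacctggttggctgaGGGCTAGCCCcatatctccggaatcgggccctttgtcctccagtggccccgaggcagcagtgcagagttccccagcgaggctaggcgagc
Mdm2: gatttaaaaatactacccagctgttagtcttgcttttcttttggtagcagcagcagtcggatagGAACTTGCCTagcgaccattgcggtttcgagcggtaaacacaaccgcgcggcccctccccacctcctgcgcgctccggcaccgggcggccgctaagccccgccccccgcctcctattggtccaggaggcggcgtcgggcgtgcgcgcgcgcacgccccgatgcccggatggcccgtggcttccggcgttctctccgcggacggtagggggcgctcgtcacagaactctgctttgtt
Phlda3: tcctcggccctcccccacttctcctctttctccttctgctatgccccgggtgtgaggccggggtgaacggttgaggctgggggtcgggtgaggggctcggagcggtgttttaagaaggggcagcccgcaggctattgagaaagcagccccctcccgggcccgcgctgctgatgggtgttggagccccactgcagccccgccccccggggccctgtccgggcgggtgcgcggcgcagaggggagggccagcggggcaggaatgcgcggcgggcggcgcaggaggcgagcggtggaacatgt
An exact half-site was present in 12 of the 37 member windows (32.4%) and in 8.36% of all windows. These are shares of windows and not of genes. Windows of the same gene can overlap, and those of Aen hold the same half-site.

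Ppm1d encodes a phosphatase, induced by p53, that dampens the damage signal. It gave 1.08, 0.97, 1.34 and 1.17 at 0 h, 0.66, 0.75, 0.90 and 0.62 at 48 h, and 0.67, 0.76 and 0.83 at 96 h, and all later arrays were below all 0 h arrays. The log2 difference at 48 h was -0.41 ± 0.11 (SE, adjusted p = 0.0265), called under 17 of 24 alternatives and lost with median scaling (-0.63, adjusted p = 0.0705) and without 0 h replicate 3 or 4 or 48 h replicate 1, 2 or 4 (highest adjusted p 0.0755). At 96 h it was -0.39 ± 0.12 (SE, adjusted p = 0.0609), and -0.41 (adjusted p = 0.0454) with the replicate block. Plk3 encodes a stress-responsive polo-like kinase, and its differences from 0 h were -0.93 (adjusted p = 0.0558) at 96 h and -0.66 (adjusted p = 0.0914) at 48 h. With the replicate block both were called, at -1.03 (adjusted p = 0.0167) and -0.66 (adjusted p = 0.0271), lower in 3 of 3 and 4 of 4 pairs. Its relative Plk2 was dim, well above background on 8 of 11 arrays, with differences of -0.59 and -0.53 that were not called.

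Btg2 encodes an antiproliferative protein. It was 0.77 higher at 96 h than at 0 h on the log2 scale (adjusted p = 0.0617), a difference called with the replicate block (0.78, adjusted p = 0.035) and positive in 3 of 3 pairs. Ccng1 (cyclin G1), Zmat3 (an RNA-binding zinc finger protein) and Sesn1 (a sestrin, linked to oxidative stress and TOR signalling) are among the most regular p53 targets. Their log2 differences at 48 h against 0 h were 0.14, 0.10 and 0.29, with adjusted p of 0.522, 0.778 and 0.134, and at 96 h they were 0.01, 0.04 and 0.24. The 95% intervals at 48 h reached at most 1.37-fold for Ccng1, 1.53-fold for Zmat3 and 1.49-fold for Sesn1. Sesn1 was higher in 4 of 4 pairs at 48 h. Psrc1, which encodes a microtubule-associated protein, was 0.42 higher at 96 h (adjusted p = 0.0686) with all 96 h arrays above all 0 h arrays.

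**Figure D4:**
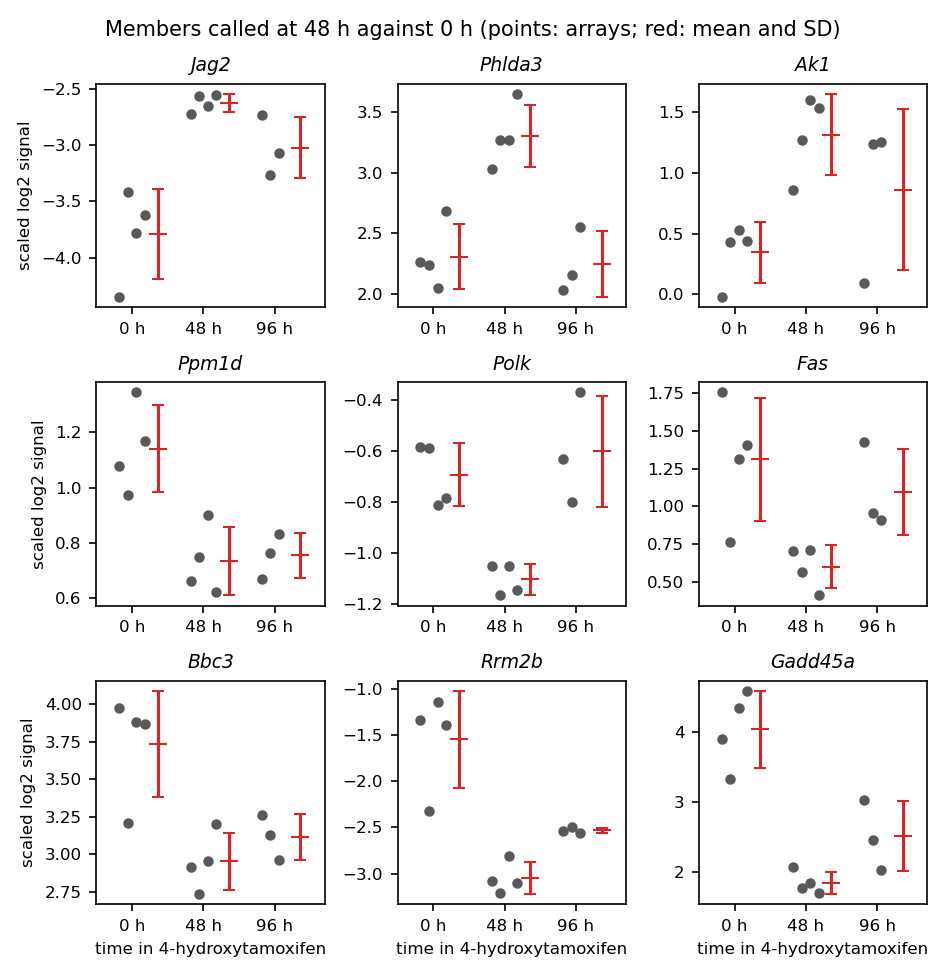
Scaled log2 signal by array (grey points) at 0, 48 and 96 h of the 9 p53 pathway genes called at 48 h against 0 h, with mean and SD in red; each panel has its own axis. The 48 h arrays of Jag2, Phlda3 and Ak1 lie above all 0 h arrays, and those of Gadd45a, Rrm2b, Bbc3, Fas, Polk and Ppm1d lie below them.

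The cell death genes divided. Bbc3 encodes PUMA, a BH3-only protein that triggers mitochondrial apoptosis. It gave 3.98, 3.21, 3.89 and 3.87 at 0 h, 2.92, 2.74, 2.95 and 3.20 at 48 h, and 3.26, 3.13 and 2.96 at 96 h. All 48 h arrays were below all 0 h arrays, and 1 of the 0 h arrays came down to the level of the later ones. The log2 difference at 48 h was -0.78 ± 0.18 (SE, adjusted p = 0.0157), called under all 24 alternatives, with adjusted p of 0.00208 to 0.0453. At 96 h it was -0.62 ± 0.19 (SE, adjusted p = 0.0662), and with the replicate block -0.74 (adjusted p = 0.0227), lower in 3 of 3 pairs.

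Fas encodes a death receptor at the cell surface. It gave 1.75, 0.77, 1.31 and 1.41 at 0 h, 0.71, 0.57, 0.71 and 0.41 at 48 h, and 1.42, 0.96 and 0.91 at 96 h. The 48 h arrays were all below the 0 h arrays, by little in the case of 0 h replicate 2, and the 96 h arrays overlapped the 0 h arrays. The 48 h difference was -0.71 ± 0.20 (SE, adjusted p = 0.0355), a call kept under 16 of 24 alternatives and lost without any 1 of 0 h replicates 1, 3 and 4 or of the 48 h replicates (highest adjusted p 0.0938). Tnfrsf10b, the mouse receptor for the death ligand TRAIL, was not called, with -0.22 at 96 h and -0.11 at 48 h.

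Phlda3 encodes a small protein that restrains Akt by competing for membrane lipids. It gave 2.26, 2.24, 2.05 and 2.68 at 0 h, 3.03, 3.27, 3.27 and 3.65 at 48 h, and 2.03, 2.16 and 2.55 at 96 h. The 48 h arrays stood above every array of the other times, and the 96 h arrays overlapped the 0 h arrays. Phlda3 rose at 48 h by 0.998 ± 0.18 on the log2 scale (SE, adjusted p = 0.00704), 2.00-fold, with an adjusted p of 0.0705 under median scaling, the 1 alternative of 24 in which it was not called. At 96 h it was 1.06 ± 0.19 lower than at 48 h (log2 difference -1.06, SE, adjusted p = 0.0106), called under all 24 alternatives, and its difference from 0 h was -0.06 (adjusted p = 0.864).

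Pidd1 encodes the platform protein that assembles a caspase-2 complex. It gave -1.85, -1.18, -1.13 and -1.30 at 0 h, -1.39, -1.25, -1.26 and -1.30 at 48 h, and -0.80, -0.64 and -0.41 at 96 h. Every 96 h array was above every earlier array, and the 48 h arrays lay among the 0 h arrays. Pidd1 rose at 96 h by 0.75 ± 0.17 relative to 0 h (SE, adjusted p = 0.0289) and by 0.68 ± 0.17 relative to 48 h (SE, adjusted p = 0.0332). The first call was kept under 16 of 24 alternatives and was lost with median scaling (0.36, adjusted p = 0.372). Leaving out any 1 of the 96 h arrays, or 0 h replicate 4, also ended it (highest adjusted p 0.0936). The second call was kept under 15 of 24 and ended without any 1 of the 48 h or 96 h arrays (highest adjusted p 0.108).

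Perp, which encodes a membrane protein of desmosomes and apoptosis, varied widely between arrays of 1 time. It gave -0.89, -1.76, 0.99 and -0.58 at 0 h, -1.77, -1.43, 0.47 and -0.59 at 48 h, and -2.65, -1.46 and -2.75 at 96 h. Replicate 3 was the highest at both 0 h and 48 h. The difference of 96 h from 0 h was -1.73 ± 0.68 (SE, adjusted p = 0.129), and with the replicate block it was -2.03 ± 0.27 (SE, adjusted p = 0.012), lower in 3 of 3 pairs. Against 48 h the blocked difference at 96 h was -1.75 (adjusted p = 0.015), and without the block -1.45 (adjusted p = 0.195). Aen, a nuclease that acts in apoptosis, differed by -0.55 at 96 h from 0 h (adjusted p = 0.0986) and by -0.62 with the block (adjusted p = 0.0462). Trp53inp1, a cofactor in p53-dependent death, showed differences of 0.14 at 96 h and 0.02 at 48 h for its brighter probe, and 0.41 and 0.57 (adjusted p = 0.0695 at 48 h) for a dimmer one, none called. Ei24, an endoplasmic reticulum protein, was not called either, at 0.29 and 0.28. Eda2r, a receptor of the tumour necrosis factor family, was not tested: each of its 2 probes was well above background on 1 of 11 arrays.

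The DNA repair and nucleotide supply genes also moved in both directions. Rrm2b encodes p53R2, a subunit of ribonucleotide reductase that supplies nucleotides for repair outside of S phase. It gave -1.34, -2.32, -1.14 and -1.40 at 0 h, -3.08, -3.21, -2.81 and -3.10 at 48 h, and -2.54, -2.50 and -2.56 at 96 h. All later arrays were below all 0 h arrays, and all 96 h arrays were above all 48 h arrays. At 48 h the signal stood at 35.4% of 0 h, a log2 difference of -1.50 ± 0.22 (SE, adjusted p = 0.00343) that was called under all 24 alternatives but was -0.65 after normexp correction. The 96 h difference was -0.98 ± 0.24 (SE, adjusted p = 0.0339), called under 14 of 24 alternatives, and -0.51 after normexp correction. That call was lost without 0 h replicate 1, 3 or 4 or any 1 of the 96 h arrays (highest adjusted p 0.0918).

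Nucleotide excision repair removes bulky lesions from DNA. Xpc encodes the protein that first recognises a distorted helix, and it gave 4.81, 4.86, 4.53 and 4.82 at 0 h, 5.32, 4.94, 5.12 and 5.06 at 48 h, and 5.33, 5.16 and 5.22 at 96 h. All later arrays were above all 0 h arrays. The difference from 0 h was 0.48 ± 0.12 (SE, adjusted p = 0.0371) at 96 h and 0.36 ± 0.11 (SE, adjusted p = 0.052) at 48 h. Ercc5 encodes the nuclease that cuts on the 3' side of the lesion, and it gave -1.40, -1.31, -1.39 and -1.12 at 0 h, -1.24, -1.05, -0.95 and -0.998 at 48 h, and -1.02, -0.72 and -0.85 at 96 h. The 96 h arrays were above all 0 h arrays, with a difference of 0.45 ± 0.12 (SE, adjusted p = 0.0425). Both 96 h calls rested on the scaling: with median scaling the differences were 0.10 for Xpc and 0.06 for Ercc5, and the calls were kept under 12 and 7 of 24 alternatives. Leaving out any 1 of the arrays except 0 h replicate 2 and 48 h replicates 1 and 2 ended that of Xpc (highest adjusted p 0.115), and leaving out any 1 except 48 h replicate 1 ended that of Ercc5 (highest adjusted p 0.126).

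Ddb2, a subunit of the complex that finds ultraviolet lesions in chromatin, gave -1.37, -1.23, -0.95 and -1.05 at 0 h, -1.42, -1.66, -1.73 and -1.27 at 48 h, and -0.63, -1.09 and -1.01 at 96 h. Its 96 h arrays were all above its 48 h arrays, while the 0 h arrays overlapped both. The 96 h difference from 48 h was 0.61 ± 0.16 (SE, adjusted p = 0.0392), and 0.57 (adjusted p = 0.0788) with the replicate block. Leaving out 0 h replicate 4, 48 h replicate 1, 2 or 3 or any 1 of the 96 h arrays ended the call (highest adjusted p 0.141).

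Polk encodes a DNA polymerase that copies past damaged bases. Its brighter probe gave -0.58, -0.59, -0.81 and -0.78 at 0 h, -1.05, -1.17, -1.05 and -1.15 at 48 h, and -0.63, -0.80 and -0.37 at 96 h. The 48 h arrays were below all others. The differences were -0.41 ± 0.11 (SE, adjusted p = 0.0294) at 48 h relative to 0 h and 0.50 ± 0.12 (SE, adjusted p = 0.0266) between 96 h and 48 h. A second Polk probe differed by 0.28 (adjusted p = 0.197) and -0.31 (adjusted p = 0.224) in the same comparisons, neither called, and the within-array difference of the second probe minus the first changed by 0.69 at 48 h against 0 h (exact permutation p = 0.0286, adjusted p = 0.129 over 18 comparisons). With the mean of both probes neither difference was called (-0.07 and 0.10). The 48 h call was also lost without 0 h replicate 1, 2 or 4 or 48 h replicate 1, 2 or 4 (highest adjusted p 0.0755), and the 96 h call without 48 h replicate 1, 2 or 4 or 96 h replicate 1 or 3 (highest adjusted p 0.0825).

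**Figure D5:**
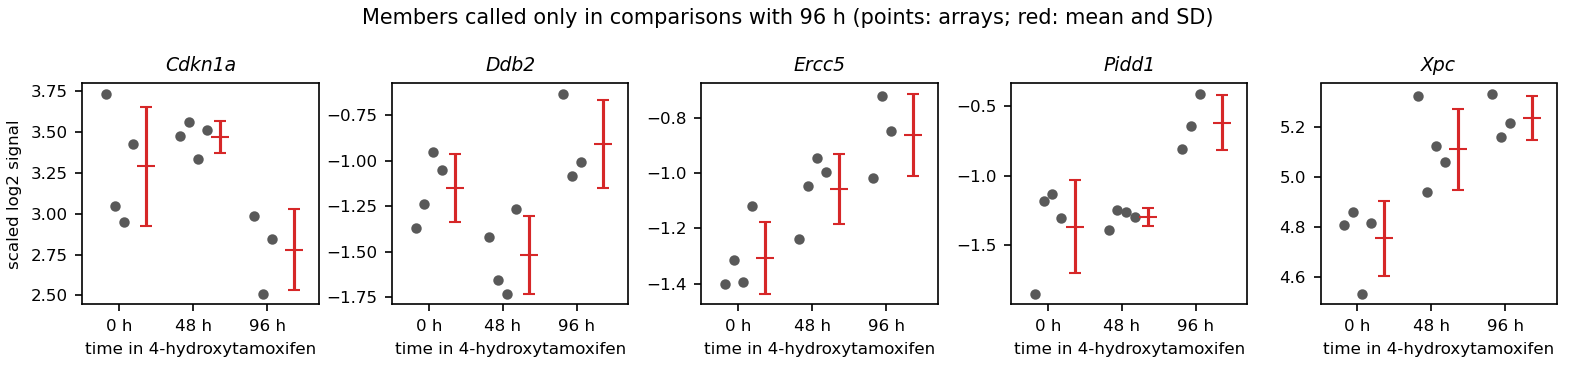
Scaled log2 signal by array (grey points) at 0, 48 and 96 h of the 5 p53 pathway genes called at 96 h, against 0 h or 48 h, and not at 48 h against 0 h, with mean and SD in red; each panel has its own axis. The 96 h arrays of Pidd1 lie above all others, and those of Cdkn1a lie below all 48 h arrays.

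Of the remaining targets, which serve signalling and metabolism, Jag2 and Ak1 were called. Jag2 encodes a ligand of Notch receptors and was dim, with -4.35, -3.42, -3.78 and -3.63 at 0 h, -2.73, -2.57, -2.65 and -2.55 at 48 h, and -2.74, -3.27 and -3.07 at 96 h. All later arrays were above all 0 h arrays. The difference from 0 h was 0.77 ± 0.21 (SE, adjusted p = 0.0445) at 96 h and 1.17 ± 0.19 (SE, adjusted p = 0.00499) at 48 h. The 48 h call held under all 24 alternatives but the difference was 0.24 after normexp correction, and the 96 h call held under 6 of 24, being lost without any 1 of the arrays except 0 h replicate 2 (highest adjusted p 0.139). Ak1, a kinase that interconverts adenine nucleotides, gave -0.02, 0.43, 0.53 and 0.44 at 0 h, 0.86, 1.27, 1.60 and 1.53 at 48 h, and 0.10, 1.24 and 1.26 at 96 h. Its 48 h arrays were above all 0 h arrays and 1 of its 96 h arrays came back to the 0 h level. The 48 h difference was 0.97 ± 0.27 (SE, adjusted p = 0.0342), kept under 16 of 24 alternatives and lost without 0 h replicate 1, 3 or 4 or 48 h replicate 2, 3 or 4 (highest adjusted p 0.0897). Dcxr, a sugar and carbonyl reductase, differed by 0.40 at 96 h from 0 h (adjusted p = 0.188), and by 0.52 with the block (adjusted p = 0.0458). Ephx1 (an epoxide hydrolase), Abhd4 (a lipase) and Slc19a2 (a thiamine transporter) were not called in any comparison. A second, dimmer Ephx1 probe differed from 0 h by 1.49 (adjusted p = 0.0878) at 96 h and 1.35 (adjusted p = 0.0714) at 48 h, where the first gave 0.21 and 0.27.

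Beyond the set, 22 further p53 targets were read from the same fit, and 21 were tested. Relative to 0 h, 4 were called higher and 3 lower at 48 h (33.3%, beside 18.6% of all features), 2 of these 7 by 2-fold or more, and 2 higher and 2 lower at 96 h (19%, beside 9.54%). Between 96 h and 48 h 2 were called, both lower at 96 h (9.52%, beside 11.3%), among them Rps27l (-0.38, adjusted p = 0.0492). When 1 array was left out the 3 counts ran from 3 to 9, 1 to 5 and 1 to 3, the lowest at 48 h without 48 h replicate 4 and at 96 h without 0 h replicate 1 or 4 or 96 h replicate 2. With only the 96 h and 0 h arrays in the fit, limma called 0 at 96 h (8 at an unadjusted p under 0.05). The lower ones at both times included Sesn2, a sestrin (-0.53 at 96 h and -0.63 at 48 h), and Pmaip1, the gene of the BH3-only protein NOXA, was lower at 96 h (-0.73, adjusted p = 0.0125). Steap3, a metalloreductase, was higher at both times (0.52 at 96 h and 0.49 at 48 h). Pml, the scaffold of PML nuclear bodies, was 0.54 higher at 96 h than at 0 h. Rps27l, a ribosomal protein gene, was 0.43 higher at 48 h. The list's median was -0.06 at 96 h and 0.07 at 48 h.

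Of 20 genes that regulate p53, 5 were called at 48 h and 3 at 96 h relative to 0 h, and 7 between 96 h and 48 h. These were 25%, 15% and 35% of the list, beside 18.6%, 9.54% and 11.3% of all features. With median scaling the counts were 3, 5 and 3. The share of all features called with that scaling is not given beside them, so a fall or rise of the list cannot be told from a general one. Mdm4, the partner of Mdm2 that holds p53 inactive, was 0.77 higher at 48 h than at 0 h (adjusted p = 0.0169) and differed by -1.22 at 96 h from 48 h (adjusted p = 0.00597). Trp53bp2, which encodes ASPP2, a protein that steers p53 towards apoptotic targets, moved the other way, by -1.10 at 48 h from 0 h (adjusted p = 0.0027) and 1.002 at 96 h from 48 h. Trp53bp1 followed the same course with smaller values (-0.50 and 0.65). Rchy1, a ubiquitin ligase of p53, was lower at both times (-0.84 at 96 h and -0.88 at 48 h). Ppp1r13l, the inhibitory member of the ASPP family, was 0.88 higher at 96 h than at 0 h (adjusted p = 0.00605), and Crebbp, a histone acetyltransferase that acts with p53, differed by -0.53.

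The damage sensing and checkpoint genes numbered 25, and 8% of them at 48 h and 4% at 96 h were called against 0 h, beside 18.6% and 9.54% of all features. At 48 h 2 were called, both lower, Prkdc (the catalytic subunit of the DNA-dependent protein kinase, -0.60) and Mre11a (a nuclease of the break-sensing complex, -0.41). At 96 h, 1 was higher, Mdc1, a scaffold at DNA breaks (0.71, adjusted p = 0.0343), and limma called 0 without 0 h replicate 1 or 4 or any 1 of the 96 h arrays (5 to 10 at an unadjusted p under 0.05). Median scaling, no filter on dim probes and a fit of only the compared groups also gave 0 (5, 9 and 8 unadjusted). Between 96 h and 48 h 5 were called, all higher at 96 h, among them Prkdc (0.70), Timeless (0.88) and the kinase gene Wee1 (0.37). These 5 were 20% of the list, beside 11.3% of all features called and 5.27% higher, and the count was 1 without any 1 of the 96 h arrays, 2 without 0 h replicate 4 or 48 h replicate 1, 2 or 4, and 0 by limma with median scaling (2 at an unadjusted p under 0.05). The list's median difference between 96 h and 48 h was 0.24, beside 0.04 over all features.

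Of 31 DNA repair enzymes, 2 were higher and 4 lower at 48 h, 2 higher and 2 lower at 96 h, both relative to 0 h, and 5, all higher, between 96 h and 48 h. These were 19.4%, 12.9% and 16.1% of the list, beside 18.6%, 9.54% and 11.3% of all features. When 1 array was left out the counts ran from 3 to 8, 0 to 7 and 0 to 6, and limma's count of 0 came without 96 h replicate 3 at 96 h against 0 h (8 at an unadjusted p under 0.05) and without 96 h replicate 1 in the last comparison (9). With median scaling 0 were called in the last comparison (5 at an unadjusted p under 0.05). With only the 96 h and 0 h arrays in the fit, limma called 0 at 96 h against 0 h (8 at an unadjusted p under 0.05). Ogg1, the glycosylase that removes oxidised guanine, was lower at both times (-0.71 at 96 h and -0.66 at 48 h), as was Ung, the uracil glycosylase, at 96 h (-0.46). Xpa, a nucleotide excision repair factor, was higher at both times (0.36 and 0.48). Polb, the polymerase of base excision repair, was 0.47 lower at 48 h than at 0 h (log2 difference -0.47) and 0.52 higher at 96 h than at 48 h, and Brca2, which loads the recombinase in homologous recombination, was 1.02 higher at 96 h than at 48 h.

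Active p53 also lowers a group of cell cycle genes by way of p21. All 10 such genes listed had a positive difference at 48 h, with a median of 0.70 beside 0.12 over all features, and 2 were called (20%, beside 18.6% of all features), Cdk1 (the mitotic cyclin-dependent kinase, 0.86, adjusted p = 0.0416) and the transcription factor gene E2f1 (0.48, adjusted p = 0.0179). The list's median scaled log2 signal was 2.91, 4.59, 4.18 and 3.63 in the 0 h arrays, 4.48 to 4.69 at 48 h and 4.19 to 4.29 at 96 h, so that 0 h replicate 2 lay within the 48 h range. Between 48 h and 0 h the arrays of 3 of the 10 genes did not overlap, beside 23.7% of all features. The count of 2 was 7 without 0 h replicate 2, 0 by limma without 48 h replicate 1 (3 at an unadjusted p under 0.05) and 1 without any other 0 h or 48 h array or 96 h replicate 2 or 3. With median scaling neither was called, and 0 of the 10 had an unadjusted p under 0.05. At 96 h the median was 0.62 and none was called by limma at the adjusted threshold, while 2 had an unadjusted p under 0.05.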

How the data were processed

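Total RNA from 11 cultures was labelled with 1 dye and hybridised to Agilent arrays of 62976 spots. Per the file headers, the scanner files came from Agilent Feature Extraction 11.0.1.1, and the deposited intensity column used here was background-subtracted by that software. The authors also deposited a series table of log2 values; per the submitters' processing notes limma was used, and the table correlated at 0.99998 or above with a normexp correction (offset 50) followed by quantile normalization of the same arrays. It served as an alternative only, with column medians of 6.17 to 6.19.

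Here spots marked as outliers in the files (125 to 194 per array) and control spots were left out, spots of a probe were averaged, and log2 intensity was set against the 75th percentile of each array. A probe was kept if 3 or more of the 11 arrays showed it well above background (34273 of 55681). RefSeq accessions were matched to current symbols through a RefSeq gene table: 27656 probes had 1 symbol, 0 had several and 28025 had none. The probe with the highest mean stood for a gene. Differences were tested with limma 3.58.1 in R 4.3.3 (lmFit and eBayes, 3 time groups, 11 arrays), adjusted by Benjamini-Hochberg over all 25082 features, after a test of the script on simulated data. Arrays carry no read depth; their number limits the precision.

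The members and gene lists were chosen with earlier results of these data known. Values per array are given for members called in any comparison and for Cdkn1a, Mdm2 and Trp53, and values of up to 4 called genes per comparison from each other list, those with the smallest adjusted p. The replicate number was taken from the scanner record, since arrays with that number deviated together from their group means. The 24 alternatives covered scaling, background correction, the deposited table, probe filters, averaging of probes, samples in the fit, array weights, blocks, slide row and leaving out each array. Promoter sequences came from RefSeq (GRCm38.p6). The values of 1 gene among the other lists are not reported here.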

Additional observations from a re-analysis of the deposited data

Results flagged for a closer look

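In groups of 4 arrays, 1 array stood apart from the other 3 in 5 of the 64 gene and time combinations examined, where chance alone marks about 1 in 20, and the 96 h group of 3 arrays was not examined. Bbc3 at 0 h was low in replicate 2, at a scaled log2 signal of 3.21, with the others at 3.87 to 3.98. Xpc at 0 h was low in replicate 3, at 4.53, with the others at 4.81 to 4.86. Ephx1 at 0 h was low in replicate 4, at -0.21, with the others at -0.08 to -0.05. Btg2 at 48 h was low in replicate 4, at -1.34, with the others at -1.08 to -1.04. Dcxr at 48 h was high in replicate 2, at 2.08, with the others at 1.82 to 1.85. The causes were not tested.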

How the results depend on the processing

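At 48 h against 0 h, the calls of Gadd45a, Rrm2b, Bbc3 and Jag2 were kept under all 24 alternatives, as was that of Phlda3 between 96 h and 48 h. The direction changed for Cdkn1a at 48 h with median scaling (-0.041) and for Trp53 at 96 h, whose difference from 0 h ran from -0.32 to 0.081 when 1 array was left out and was above 0 without 0 h replicate 2 (0.081), 96 h replicate 1 (0.048) or 96 h replicate 2 (0.022). Median scaling moved the members' median difference to -0.17 at 48 h and -0.36 at 96 h relative to 0 h, and to -0.14 between 96 h and 48 h, called 2352 features at 48 h and 899 between 96 h and 48 h, and left 2 members called between the later times. With no filter on dim probes, 2655, 925 and 1388 features and 5, 1 and 1 members were called at 48 h and 96 h relative to 0 h and between 96 h and 48 h. At 96 h against 0 h, 3 members were called after quantile normalization, 11 with only probes above background on all arrays and 13 with the replicate block of the scanner records, which changed no member's call beyond those of Plk3, Bbc3, Btg2, Aen, Perp, Dcxr, Ppm1d and Ddb2 given with their genes. The filter to probes above background on all arrays tests another set of features. Its share of all features called is not given here, so its 11 members cannot be set against a background. With only the 96 h and 0 h arrays in the fit, limma called 399 features and 0 members at 96 h against 0 h, while 14 members had an unadjusted p under 0.05. Blocking on the number in the title gave 1485 features at 96 h relative to 0 h, and 1604 features and 2 members between 96 h and 48 h. In the last comparison the mean of a gene's probes gave 3 members and slide row as a term gave 3. The share of all features called in those fits is not given here, so these counts cannot be set against a background. Leaving out each array in turn gave 2459 to 5435, 705 to 3284 and 1010 to 2965 features, and 5 to 11, 0 to 11 and 1 to 6 members, in the same order of comparisons. The 0 came without 96 h replicate 3, where 13 members had an unadjusted p under 0.05. The members' median ran from -0.002 to 0.09, -0.12 to 0.10 and -0.03 to 0.07. The causes of these changes were not tested. Dim probes such as those of Jag2 and Rrm2b limit the size of a change that can be read, and no treated cells without floxed alleles were analysed here.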
